A study of Homo sapiens with 8 samples.

Results

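The tight junction genes described here are *CLDN1*, *CLDN4*, *CLDN7*, *OCLN*, *MARVELD2*, *F11R*, *TJP1*, *TJP3* and *CGN*, 9 of the 13842 genes in the expression table. They were taken by gene symbol, and each of the 9 symbols was found in 1 row of the table. The study raised *MALINC1*, a long non-coding RNA (lncRNA), in MCF10A, a non-tumorigenic breast epithelial cell line, and in DCIS.COM, a line of the same origin used as a model of ductal carcinoma in situ. Each line was stably transduced with a lentiviral vector, either empty (pLOC-empty) or carrying *MALINC1* (pLOC-*MALINC1*), which gave 4 groups with 2 RNA-seq libraries in each. All 4 groups were blasticidin-selected populations harvested before confluence. No repeat transductions are described, so an effect of *MALINC1* cannot be told apart from a difference between the transduced populations. The media differed, because both lines received horse serum but only MCF10A also received EGF (20 ng/mL), hydrocortisone, insulin and cholera toxin, so that line and medium cannot be told apart in any comparison between the lines. The labels do not say whether replicate libraries came from separate cultures, so the p-values below measure only the spread between these libraries.

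Tight junctions seal the space between neighbouring epithelial cells near their apical border, where strands of membrane proteins limit the passage of ions and solutes. Claudins form the strands, occludin and tricellulin are found along them and at the points where 3 cells meet, and JAM-A is an adhesion receptor that helps the junction to assemble. On the cytoplasmic side the ZO proteins and cingulin tie the strands to actin. Loss of these junctions is part of the epithelial to mesenchymal transition.

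In MCF10A, pLOC-*MALINC1* cells had more RNA of all 3 claudin genes, of occludin, of tricellulin and of cingulin, with log2 fold changes of 0.29 to 0.86, and less RNA of the scaffold genes *TJP1* and *TJP3*, with log2 fold changes of -0.36 and -0.52. *F11R* did not pass the test. In DCIS.COM only *CLDN1* passed it, and it fell by 0.21 on the log2 scale. A gene is called here when limma's test, adjusted by the Benjamini-Hochberg method over all 13842 genes, gave p below 0.01, and it is called a differentially expressed gene (DEG) when the change was also over 2-fold. By this rule 6 members rose and 2 fell in MCF10A, where 39.6% of all genes were called (21.5% higher and 18.1% lower). In DCIS.COM 0 members rose and 1 fell, against 33.2% of all genes called (16.4% higher and 16.7% lower). No member reached 2-fold in either line: 0 of the 9 were DEGs, against 5.5% of all genes in MCF10A and 4.53% in DCIS.COM. The median log2 fold change of the members was 0.34 in MCF10A and 0.0040 in DCIS.COM. The median of all genes lay within 0.0089 of 0 in both lines. In bulk RNA, fewer cells with a transcript and less of it per cell cannot be told apart.

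Levels are given in CPM, read counts scaled to the effective library size of the authors' normalization and not to the reads on genes. That size was below the reads on genes in each MCF10A library and in replicate 1 of DCIS.COM pLOC-empty. In the remaining DCIS.COM libraries it was above them. *MALINC1* itself stood at 1.0 and 1.51 CPM in the MCF10A pLOC-empty libraries and at 13.2 and 11.7 in the pLOC-*MALINC1* libraries. In DCIS.COM it stood at 1.35 and 1.15 CPM with the empty vector and at 24.5 and 19.2 with *MALINC1*. Each library thus fitted the vector in its label. The log2 fold change was 3.27 in MCF10A (SE 0.19, limma adjusted p = 3.97e-08) and 4.04 in DCIS.COM (SE 0.19, limma adjusted p = 6.93e-09). The libraries held 20604377 to 37550457 reads on genes, and a member had 178 to 13706 reads in a library. All 8 basal breast epithelial markers were present in each group, *TP63* lowest in MCF10A pLOC-empty. Their summed level was 33485 to 33671 CPM in MCF10A pLOC-empty, 40842 to 42111 in MCF10A pLOC-*MALINC1*, 5067 to 5084 in DCIS.COM pLOC-empty and 5311 to 5407 in DCIS.COM pLOC-*MALINC1*. Of the fibroblast, endothelial and leukocyte markers only *COL1A1*, *PECAM1* and *CD68* were in the table. *COL1A1* had 15.1 to 15.9, 6.61 to 7.38, 1.91 to 2.01 and 1.51 to 1.60 CPM in the groups in the same order, *CD68* had 11.2 to 11.4, 8.89 to 9.44, 3.53 to 3.59 and 6.95 to 7.05 CPM, and *PECAM1* had 0.974 to 1.03, 0.680 to 0.808, 6.06 to 7.21 and 0.0874 to 0.177 CPM. The 5 pan-epithelial markers summed to 1965 to 2063, 2294 to 2444, 3906 to 3970 and 3807 to 3910 CPM in that order of groups, and the luminal markers in the table (3 of 4) to 17.0 to 18.6, 23.7 to 25.4, 32.8 to 37.1 and 43.1 to 48.8 CPM. The part of these markers in the results on the members was not tested.

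The DNA before the start sites of the members is shown for elements of AP-1, the factor on which the study centred, and of repressors and activators of epithelial genes. RefSeq promoter windows were found for 8 of the 9 members, and *F11R* was not matched. The 14 windows, some genes having several start sites, were searched over 250 bases before the start on both strands. Of the 6 motifs searched, 4 that do not contain one another are described, without CANNTG and TATAAA. The E-box that SNAI and ZEB factors bind was taken as CAGGTG. The AP-1 element was taken as TGANTCA, with N for any base. The element of the grainyhead factors was taken as AACCGGTT and the GC box as GGGCGG. The E-box was in 5 windows, of *OCLN* (both starts) and of *CLDN7*, *TJP1* and *TJP3*, where other starts of the same gene lacked it. The AP-1 element was in 1 window, of *CLDN4*, the grainyhead element in 0 and the GC box in 11. Over all 35116 RefSeq windows of that length the shares were 17.5% for the E-box, 6.57% for the AP-1 element, 0.117% for the grainyhead element and 42.6% for the GC box. Over the 15356 windows of genes in the table they were 16.4%, 4.73%, 0.150% and 62.3% in the same order. A match is a description of the letters and does not show that a factor was bound. The windows with the AP-1 elements of *CLDN4* and the E-boxes of *CLDN7* lay wholly (250 bases) in annotated untranslated regions of transcripts on either strand. So did the *OCLN* window with the E-box at -33, and 137 bases of the one with the E-box at -133. In the *TJP1* and *TJP3* windows with an E-box 0 bases did. Positions below count back from the start site, with -1 as the last base before it, the sequences are those of RefSeq GRCh38.p14 placed on GRCh37 by exact match, each is written on the strand of its gene, and capitals mark the motif, which may read on either strand.

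*CLDN4*, AP-1 element at -242, chr7:73245076-73245100, plus strand: ctgggctgTGATTCAgtgtctgtct
*CLDN4*, AP-1 element at -161, chr7:73245155-73245181, plus strand: gactggatagTGACTCAgggacccggg
*CLDN7*, E-box at -174, chr17:7165956-7165981, minus strand: tcttcctcctCACCTGggcaaggagg
*CLDN7*, E-box at -135, chr17:7165917-7165942, minus strand: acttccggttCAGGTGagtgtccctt
*CLDN7*, E-box at -20, chr17:7165802-7165827, minus strand: tacatatactCAGGTGcgccccacct
*CLDN7*, E-box at -9, chr17:7165798-7165816, minus strand: aggtgcgcccCACCTGtcc
*OCLN*, E-box at -33, chr5:68788331-68788356, plus strand: atccgagtttCAGGTGaattggtcac
*OCLN*, E-box at -133 of the other start, chr5:68788474-68788499, plus strand: taggacgcagCAGGTGggactcgcgg
*TJP1*, E-box at -88, chr15:30261325-30261350, minus strand: ggccggcgcgCAGGTGgcccggcctc
*TJP3*, E-box at -7, chr19:3721718-3721734, plus strand: ggaagaggggCAGGTGc

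The window of *CLDN1*, whose response to *MALINC1* ran in opposite directions in the lines, held neither E-box nor AP-1 element and had GC boxes at -88 and -40. It is given whole, with the GC boxes in capitals.

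*CLDN1*, chr3:190040236-190040485, minus strand: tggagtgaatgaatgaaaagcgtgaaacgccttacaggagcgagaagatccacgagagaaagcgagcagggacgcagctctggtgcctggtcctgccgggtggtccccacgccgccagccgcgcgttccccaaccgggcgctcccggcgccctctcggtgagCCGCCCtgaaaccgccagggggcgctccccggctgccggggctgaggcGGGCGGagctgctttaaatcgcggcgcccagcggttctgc

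All 3 claudin genes rose in MCF10A, and *CLDN1* was the only one called in DCIS.COM. *CLDN1* (chromosome 3, 190023496 to 190040235, minus strand, GRCh37) encodes a claudin that tightens the barrier of many epithelia. In MCF10A it had 51.4 and 47.9 CPM with the empty vector and 76.0 and 75.1 CPM with *MALINC1*. In DCIS.COM it had 162 and 161 CPM with the empty vector and 141 and 138 CPM with *MALINC1*. The groups did not overlap in either line, and the *MALINC1* libraries were the higher ones in MCF10A and the lower ones in DCIS.COM. The means were 49.6 ± 2.51 and 75.5 ± 0.671 CPM in MCF10A and 162 ± 0.274 and 140 ± 2.18 CPM in DCIS.COM (SD, n = 2 libraries). The MCF10A rise of *CLDN1* was 0.61 on the log2 scale (SE 0.0398, limma adjusted p = 1.24e-07), or 1.52-fold. It fell in DCIS.COM with a log2 fold change of -0.21 (SE 0.0398, limma adjusted p = 0.00092), to 0.864 of its level. The DCIS.COM call was lost without replicate 2 of the pLOC-*MALINC1* group (log2 fold change -0.20, limma adjusted p = 0.0123) and without a mean-variance trend (limma adjusted p = 0.0179), and the adjusted p ran from 0.00011 to 0.0179 over 19 alternatives.

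*CLDN4* (chromosome 7, 73213872 to 73247020, plus strand) encodes a claudin of simple and glandular epithelia and carries the AP-1 elements printed above. In MCF10A it had 66.4 and 72.3 CPM with the empty vector and 130 and 121 CPM with *MALINC1*, and in DCIS.COM 85.6 and 92.9 CPM with the empty vector and 101 and 95.1 CPM with *MALINC1*. Both *MALINC1* libraries were above both controls in each line, by a much wider gap in MCF10A. Its log2 fold change of 0.86 in MCF10A (SE 0.0556, limma adjusted p = 1.07e-07), 1.81-fold, was the largest among the members. In DCIS.COM the log2 fold change of 0.14 (95% interval 0.0158 to 0.258, limma adjusted p = 0.0619) did not pass the threshold.

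*CLDN7* (chromosome 17, 7163222 to 7167302, minus strand) encodes a claudin found along the lateral membrane as well as in the junction. It had 211 and 217 CPM in MCF10A pLOC-empty and 276 and 266 CPM in MCF10A pLOC-*MALINC1*, a rise in both libraries. In DCIS.COM it had 162 and 159 CPM with the empty vector and 168 and 162 CPM with *MALINC1*, and these values met at 162. The log2 fold change was 0.34 in MCF10A (SE 0.0346, limma adjusted p = 5.02e-06), 1.27-fold, and 0.034 in DCIS.COM (95% interval -0.041 to 0.11, limma adjusted p = 0.449). In the annotation its exons share 38 bases (1.52% of their length) with *ELP5* on the opposite strand and 269 bases (10.8%) with a protein-coding gene model on the same strand that was not in the table, so a small part of its reads may be shared.

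*OCLN* (chromosome 5, 68788119 to 68853931, plus strand), the gene of occludin, had 39.5 and 37.9 CPM in MCF10A pLOC-empty and 65.5 and 56.6 CPM in MCF10A pLOC-*MALINC1*. In DCIS.COM it had 20.3 and 19.2 CPM with the empty vector and 19.5 and 19.4 CPM with *MALINC1*. The MCF10A groups were apart, with 2 *MALINC1* libraries that also differed from each other (61.1 ± 6.28 CPM, SD, n = 2), and the DCIS.COM groups overlapped. The log2 fold change was 0.65 in MCF10A (SE 0.0676, limma adjusted p = 6.17e-06), 1.57-fold, and -0.023 in DCIS.COM (95% interval -0.17 to 0.125, limma adjusted p = 0.811).

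Reads of *OCLN* can also fall on *OCLNP1*, a partial pseudogene copy on the same chromosome (70370052 to 70389020, minus strand), since 2105 of the 10359 stretches of 76 bases in the exons of *OCLN* (20.3%) occur in it letter for letter. *OCLNP1* had 4.72 and 4.34 CPM in MCF10A pLOC-empty, 8.44 and 6.54 in MCF10A pLOC-*MALINC1*, 2.24 and 2.10 in DCIS.COM pLOC-empty and 2.30 and 2.28 in DCIS.COM pLOC-*MALINC1*. It took 9.84% to 11.4% of the reads counted on the pair in every library. Its log2 fold change in MCF10A was 0.71 (SE 0.153, limma adjusted p = 0.00208), and reads of the pair cannot be fully told apart. With the reads of both summed, the log2 fold change was 0.66 in MCF10A (limma adjusted p = 6.50e-06) and -0.013 in DCIS.COM.

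*MARVELD2* (chromosome 5, 68710892 to 68740157, plus strand), the gene of tricellulin, lies 47961 bp from *OCLN* on the same strand and encodes a protein of the same family. It had 22.2 and 20.6 CPM in MCF10A pLOC-empty, 28.1 and 24.5 in MCF10A pLOC-*MALINC1*, 19.8 and 19.2 in DCIS.COM pLOC-empty and 19.8 and 19.4 in DCIS.COM pLOC-*MALINC1*. The MCF10A groups were apart by less than the *MALINC1* libraries were from each other, and the DCIS.COM groups overlapped. In MCF10A it rose by 0.29 on the log2 scale (SE 0.0741, limma adjusted p = 0.00543), 1.23-fold, and in DCIS.COM the log2 fold change was 0.0040 (limma adjusted p = 0.974). This was the least stable rise among the members, called under 12 of 20 alternatives with an adjusted p between 0.00169 and 0.0710. It was lost without replicate 1 or 2 of MCF10A pLOC-empty (log2 fold changes of 0.35 and 0.24, limma adjusted p = 0.0107 and 0.0567) and without replicate 1 of MCF10A pLOC-*MALINC1* (log2 fold change of 0.20, limma adjusted p = 0.0710).

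*F11R* (chromosome 1, 160965001 to 160991133, minus strand), the gene of JAM-A, was the most evenly expressed member. It had 340 and 350 CPM in MCF10A pLOC-empty, 358 and 349 in MCF10A pLOC-*MALINC1*, 388 and 391 in DCIS.COM pLOC-empty and 396 and 405 in DCIS.COM pLOC-*MALINC1*. The MCF10A groups overlapped, and in DCIS.COM both *MALINC1* libraries were slightly above both controls. The log2 fold change was 0.035 in MCF10A (95% interval -0.033 to 0.104, limma adjusted p = 0.368) and 0.039 in DCIS.COM (limma adjusted p = 0.348), neither of which passed the threshold. An annotated same-strand gene model that was not in the table covers 1853 bases (36.6%) of its exons.

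The scaffold genes did not move as one. *TJP1* (chromosome 15, 29991571 to 30261118, minus strand) encodes ZO-1, the scaffold that binds claudins and occludin to actin. It had 249 and 252 CPM in MCF10A pLOC-empty and 204 and 187 CPM in MCF10A pLOC-*MALINC1*, so both *MALINC1* libraries were below both controls. In DCIS.COM it had 77.5 and 82.3 CPM with the empty vector and 80.2 and 83.4 CPM with *MALINC1*, which overlapped. The log2 fold change was -0.36 in MCF10A (SE 0.0454, limma adjusted p = 3.65e-05), a fall to 0.781 of its level, and 0.035 in DCIS.COM (limma adjusted p = 0.56).

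*TJP3* (chromosome 19, 3708360 to 3750811, plus strand) encodes ZO-3, a related scaffold restricted to epithelia, and had the fewest reads of the members. It had 9.31 and 11.5 CPM in MCF10A pLOC-empty and 7.72 and 6.72 CPM in MCF10A pLOC-*MALINC1*. In DCIS.COM it had 16.7 and 19.8 CPM with the empty vector and 15.2 and 15.7 CPM with *MALINC1*. The *MALINC1* libraries were the lower ones in both lines, with wide spread between the controls. The log2 fold change was -0.52 in MCF10A (SE 0.117, limma adjusted p = 0.00277) and -0.24 in DCIS.COM (95% interval -0.49 to 0.0201, limma adjusted p = 0.121). The fall in MCF10A was lost without replicate 2 of pLOC-empty (log2 fold change of -0.37, limma adjusted p = 0.0404) or replicate 2 of pLOC-*MALINC1* (-0.42, limma adjusted p = 0.0361), and over 20 alternatives its adjusted p ran from 0.000333 to 0.0513.

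*CGN* (chromosome 1, 151482986 to 151511168, plus strand) encodes cingulin, which sits beneath the junction and binds ZO-1 and myosin. It had 37.0 and 39.1 CPM in MCF10A pLOC-empty, 55.8 and 48.8 in MCF10A pLOC-*MALINC1*, 25.8 and 26.3 in DCIS.COM pLOC-empty and 26.4 and 25.4 in DCIS.COM pLOC-*MALINC1*. Opposite to *TJP1*, it rose by 0.46 on the log2 scale in MCF10A (SE 0.0638, limma adjusted p = 7.83e-05), 1.37-fold, a call lost only with MCF10A fitted alone among 20 alternatives (limma adjusted p = 0.0154, the highest over them). In DCIS.COM the groups overlapped and the log2 fold change was -0.0086 (limma adjusted p = 0.929).

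**Figure D1:**
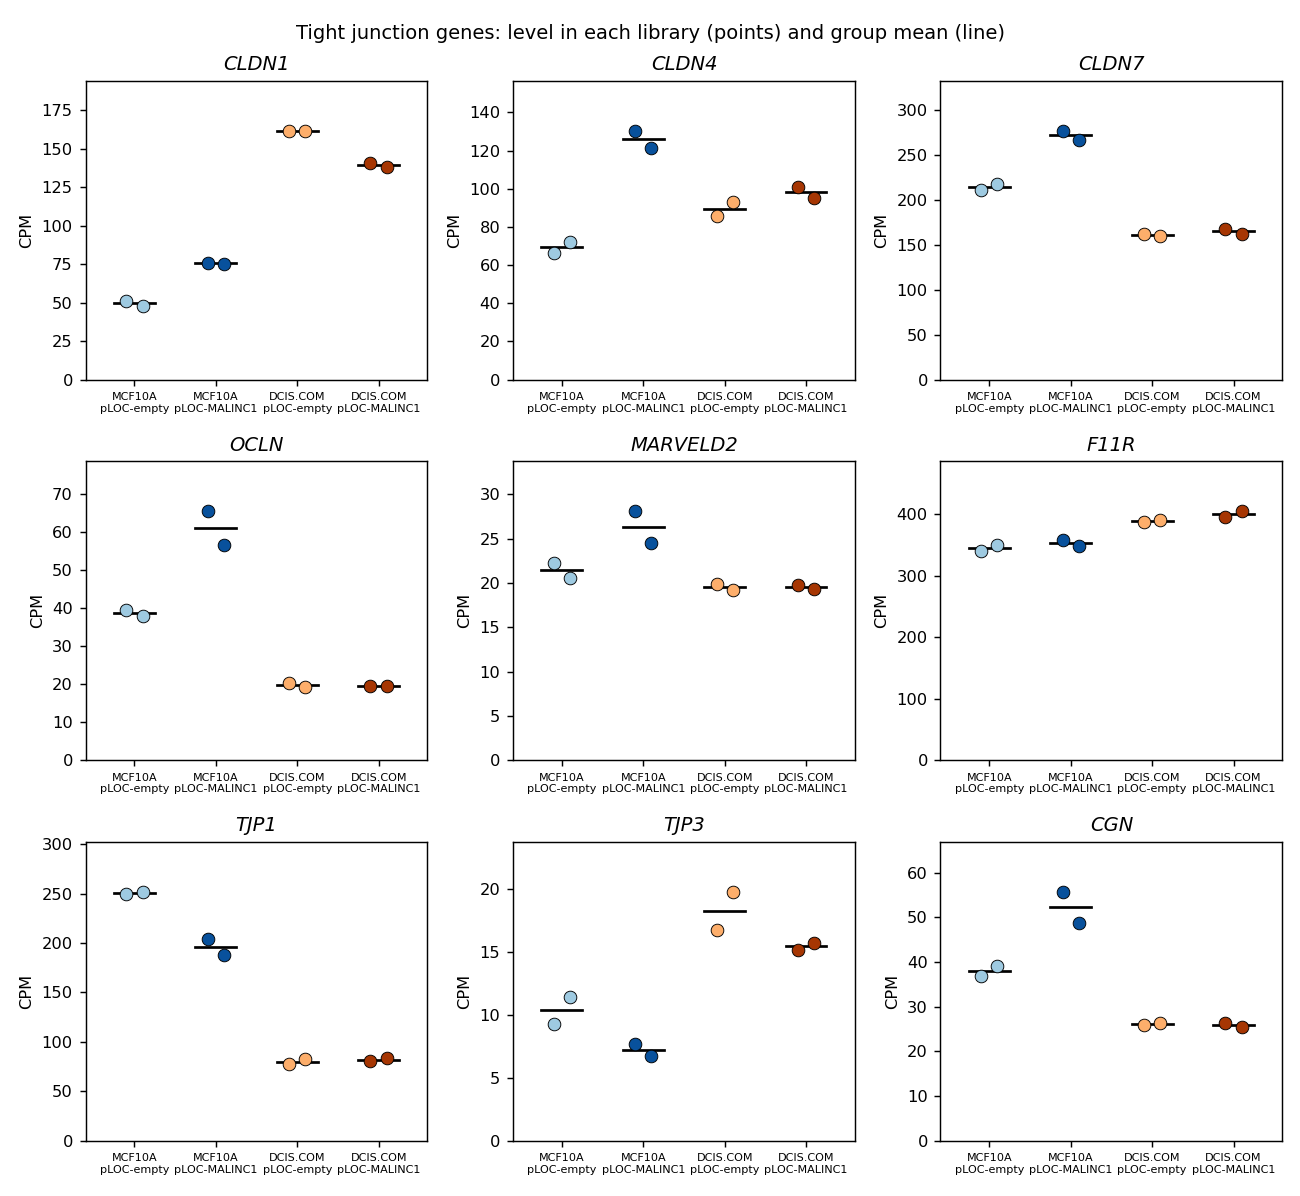
Level of each tight junction gene (CPM, linear axis from 0, a scale of its own in each panel) in the 8 libraries, with points for libraries and lines for group means. In MCF10A both pLOC-MALINC1 libraries lie above both controls for *CLDN1*, *CLDN4*, *CLDN7*, *OCLN*, *MARVELD2* and *CGN* and below them for *TJP1* and *TJP3*.

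**Figure D2:**
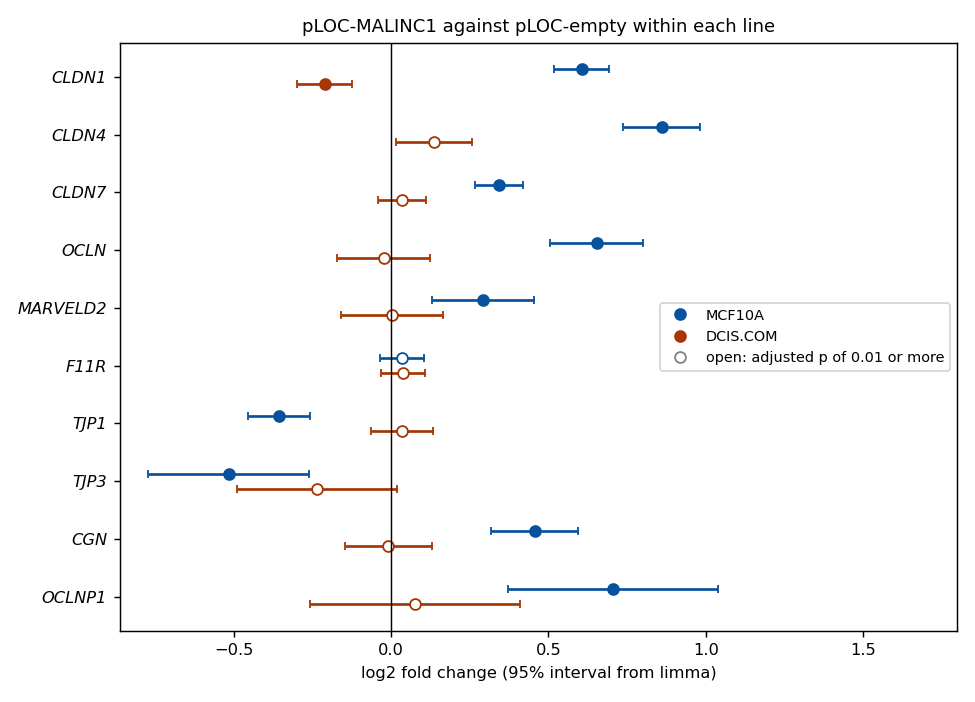
Log2 fold change of pLOC-MALINC1 over pLOC-empty libraries in MCF10A (blue) and DCIS.COM (brown) for each member and the pseudogene *OCLNP1*, with 95% intervals from limma and open points where the adjusted p was 0.01 or more. In DCIS.COM only *CLDN1* has a filled point, at -0.21.

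In all, both *MALINC1* libraries lay above both controls for 6 members and below them for 2 in MCF10A, where 38.8% and 37.7% of all genes did so, and above for 2 and below for 2 in DCIS.COM, where 37.7% and 35.4% did. With 2 libraries a side such separation is common among all genes, and the sizes and standard errors carry more than the order.

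Whether the lines responded differently was tested as the difference between the fold changes, DCIS.COM minus MCF10A. It passed the threshold for 6 of the 9 members, 5 with a lower and 1 with a higher response in DCIS.COM, where 35.9% of all genes passed (20.3% lower and 15.6% higher). The difference in log2 fold change was -0.82 for *CLDN1* (SE 0.0563, limma adjusted p = 1.97e-07) and -0.72 for *CLDN4* (SE 0.0787, limma adjusted p = 1.08e-05). It was -0.68 for *OCLN* (SE 0.0956, limma adjusted p = 9.55e-05), -0.46 for *CGN* (SE 0.0903, limma adjusted p = 0.00106) and -0.31 for *CLDN7* (SE 0.049, limma adjusted p = 0.000236). These 5 genes had a lower response in DCIS.COM, and *TJP1* had the opposite sign, at 0.39 (SE 0.0643, limma adjusted p = 0.000311). The difference did not pass for *MARVELD2* (-0.29, SE 0.105, limma adjusted p = 0.0371), for *TJP3* (0.28, limma adjusted p = 0.179) or for *F11R* (0.0030, 95% interval -0.0944 to 0.1, limma adjusted p = 0.962). Without a mean-variance trend the calls for *CLDN7*, *TJP1* and *CGN* were lost (limma adjusted p = 0.0113, 0.0141 and 0.0154, each the highest over the alternatives), which left 3 of 9.

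Between the lines the members split. With the empty vector, DCIS.COM had more *CLDN1*, *CLDN4*, *F11R* and *TJP3* and less *CLDN7*, *OCLN*, *TJP1* and *CGN* than MCF10A, so that 4 members were higher and 4 lower, against 73.9% of all genes called (37.9% higher and 36.0% lower). Among pLOC-*MALINC1* libraries, which are not those of the former comparison, 3 were higher and 6 lower, against 73.0% of all genes (35.7% higher and 37.2% lower). Over 2-fold, 2 members were DEGs with the empty vector and 4 with *MALINC1*, against 28.6% and 26.6% of all genes. Of the 4, *CGN* and *TJP3* stood close to the 2-fold line. Leaving out each library in turn gave log2 differences of -1.10 to -0.91 for *CGN* and of 0.996 to 1.19 for *TJP3*, so that neither was over 2-fold in every case. The lines thus differed at most genes, and the members were no exception.

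*CLDN1* was the member with the largest excess in DCIS.COM. Its log2 difference was 1.70 between the pLOC-empty groups (limma adjusted p = 8.23e-13), 3.25-fold, and 0.89 between the pLOC-*MALINC1* groups (limma adjusted p = 4.47e-10), 1.85-fold. *TJP3* was also higher in DCIS.COM, by 0.81 (limma adjusted p = 3.13e-05) and 1.09 (limma adjusted p = 2.08e-06) on the log2 scale, or 1.76-fold and 2.14-fold. *F11R* was higher by 0.18 in both comparisons (limma adjusted p = 0.000194 and 0.000174), a difference of 1.13-fold. *TJP1* showed the largest deficit with the empty vector, with log2 differences of -1.65 (limma adjusted p = 3.71e-12) and -1.26 (limma adjusted p = 5.48e-11), 3.14-fold and 2.39-fold lower in DCIS.COM. *OCLN* was lower by 1.95-fold with the empty vector (log2 difference -0.97, limma adjusted p = 2.93e-08) and by 3.12-fold with *MALINC1* (-1.64, limma adjusted p = 1.9e-10), and the pseudogene *OCLNP1* had log2 differences of -1.04 and -1.67.

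*CGN* and *CLDN7* were lower in DCIS.COM in both comparisons. The log2 differences of *CGN* were -0.54 (limma adjusted p = 4.78e-06) and -1.01 (limma adjusted p = 1.24e-08), and those of *CLDN7* were -0.41 (limma adjusted p = 1.83e-07) and -0.72 (limma adjusted p = 8.43e-10). *MARVELD2* was not called with the empty vector (log2 difference -0.13, limma adjusted p = 0.119) and was lower in DCIS.COM with *MALINC1* (-0.42, limma adjusted p = 0.000186). *CLDN4* was the one member whose order turned, being higher in DCIS.COM with the empty vector (0.36, limma adjusted p = 5.24e-05) and lower with *MALINC1* (-0.36, limma adjusted p = 6.35e-05). The latter lost its call when library totals were taken without *RN7SL1* and *RN7SL2* (-0.18, limma adjusted p = 0.0106, the highest over the alternatives), a scaling under which the median log2 difference of all genes between the lines was 0.14 and 0.18 in place of 0.031 and 0.0055 for the empty and the *MALINC1* vector.

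**Figure D3:**
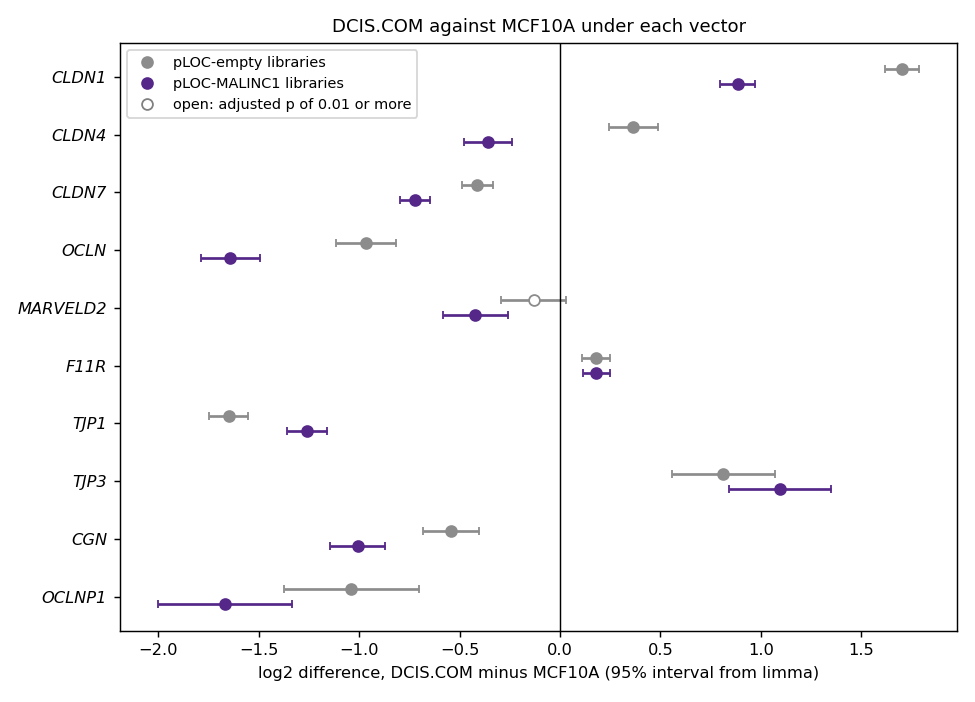
Log2 difference in level, DCIS.COM minus MCF10A, for each member and *OCLNP1* among pLOC-empty (grey) and pLOC-MALINC1 (purple) libraries, with 95% intervals from limma and open points where the adjusted p was 0.01 or more. *CLDN4* lies at 0.36 and at -0.36, on opposite sides of 0.

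Levels of different genes were compared per kilobase of annotated exon. In MCF10A pLOC-empty the order was *CLDN7* (85.8 ± 1.77 CPM per kb, SD, n = 2), *F11R* (68.1 ± 1.38), *TJP1* (22.2 ± 0.162), *CLDN4* (14.8 ± 0.885), *CLDN1* (13.7 ± 0.692), *CGN* (5.75), *MARVELD2* (3.99), *OCLN* (3.44) and *TJP3* (2.62), where only *CLDN4* and *CLDN1* overlapped as neighbours. In MCF10A pLOC-*MALINC1* it was *CLDN7* (109 CPM per kb), *F11R* (69.8), *CLDN4* (26.8), *CLDN1* (20.8), *TJP1* (17.3), *CGN* (7.90), *OCLN* (5.42), *MARVELD2* (4.90) and *TJP3* (1.82). There *CLDN4* and *CLDN1* stood above *TJP1*, and *OCLN* and *MARVELD2* overlapped. In DCIS.COM pLOC-empty *F11R* (77.0 CPM per kb) led, before *CLDN7* (64.5), *CLDN1* (44.5), *CLDN4* (19.0), *TJP1* (7.06), *TJP3* (4.61), *CGN* (3.94), *MARVELD2* (3.64) and *OCLN* (1.76). In DCIS.COM pLOC-*MALINC1* the order was that of the controls except that *CGN* (3.92 CPM per kb) and *TJP3* (3.90) overlapped. Per length, *CLDN1* was thus the third member in DCIS.COM and the fifth in MCF10A pLOC-empty, and *TJP1* the reverse. With the length of the main annotated transcript in place of all exons, *CLDN4* ranked above *TJP1* in MCF10A pLOC-empty and above *CLDN1* in DCIS.COM, *OCLN* above *MARVELD2* in MCF10A pLOC-empty, *TJP1* above *CLDN1* in MCF10A pLOC-*MALINC1*, and *CLDN7* above *F11R* in DCIS.COM.

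The other genes of the junction were taken from a list of 64 names, of which 40 were in the table, among them further claudins, JAM and angulin receptors, the PAR and Crumbs polarity proteins and the MAGI scaffolds. In MCF10A 7 of the 40 rose and 4 fell, with a median log2 fold change of 0.015, and in DCIS.COM 5 rose and 7 fell, with a median of 0.047. Both shares of calls, 27.5% and 30.0%, were below those of all genes. The only DEG in MCF10A was *PARD6G*, a PAR polarity protein, which had 1.45 and 1.82 CPM with the empty vector and 5.38 and 5.14 with *MALINC1* (log2 fold change 1.65, SE 0.144, limma adjusted p = 1.44e-06). In DCIS.COM *PARD6G* had 8.02 and 9.64 CPM and 10.3 and 9.19 CPM, which overlapped, and the difference in response of -1.51 passed the test (limma adjusted p = 6.83e-05).

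Both DEGs of that list in DCIS.COM had few reads. *CLDN20*, a little studied claudin, had 31 and 28 reads with the empty vector and 9 and 4 with *MALINC1* (log2 fold change -2.54, SE 0.404, limma adjusted p = 0.000263). *ILDR2*, an angulin of the junctions where 3 cells meet, had 6 and 6 reads and 32 and 38 reads (log2 fold change 1.63, SE 0.338, limma adjusted p = 0.00181). The sizes depended on the processing. Over the alternatives the log2 fold change ran from -2.95 to -1.01 for *CLDN20* and from 0.66 to 1.97 for *ILDR2*, which was thus not over 2-fold in every case. The *ILDR2* call was lost without either DCIS.COM pLOC-empty library (log2 fold changes of 1.61 and 1.64, limma adjusted p = 0.0105 and 0.0105) or without replicate 2 of pLOC-*MALINC1* (1.5, limma adjusted p = 0.0197, the highest over the alternatives).

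Among genes of that list with at least 5 CPM in the higher line, the largest differences between the lines with the empty vector were those of *MPDZ*, *AMOT* and *PARD6G*. *MPDZ*, a multi-PDZ scaffold that binds claudins, had at most 2 reads in any MCF10A library and 29.5 and 30.0 CPM in DCIS.COM pLOC-empty. Against the level that 3 reads per library would give, it was at least 252-fold higher in DCIS.COM with the empty vector and at least 287-fold higher with *MALINC1*. *AMOT*, the angiomotin scaffold, had 5 and 0 reads in MCF10A pLOC-empty and 0 in both MCF10A pLOC-*MALINC1* libraries, against 13.5 and 14.0 CPM in DCIS.COM pLOC-empty, and was at least 111-fold higher in DCIS.COM with *MALINC1*. *PARD6G* was higher in DCIS.COM by 2.39 on the log2 scale with the empty vector (limma adjusted p = 6.86e-09). In all, 15 genes of the list were higher and 12 lower in DCIS.COM with the empty vector, and 15 and 15 with *MALINC1*, which made 67.5% and 75.0% of the list against 73.9% and 73.0% of all genes.

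Adherens junctions lie just below tight junctions and are built on cadherins and nectins. Of 17 measured genes of this list, 5 rose and 4 fell in MCF10A and 7 rose and 5 fell in DCIS.COM, with median log2 fold changes of 0.12 and 0.13. The shares called were 52.9% and 70.6%, against 39.6% and 33.2% of all genes. *NECTIN1*, a nectin adhesion receptor, had 39.3 and 40.1 CPM in MCF10A pLOC-empty and 111 and 101 CPM in pLOC-*MALINC1* (log2 fold change 1.42, SE 0.0438, limma adjusted p = 1.81e-10), and in DCIS.COM it rose by 0.34 (limma adjusted p = 5.07e-05). *CDH2*, N-cadherin, typical of mesenchymal cells, had 25.7 and 24.9 CPM in MCF10A pLOC-empty and 8.80 and 8.88 CPM in pLOC-*MALINC1* (log2 fold change -1.51, SE 0.0807, limma adjusted p = 2.07e-08). With the empty vector in DCIS.COM, *NECTIN1* had 100 and 97.5 CPM and *CDH2* had 12.5 and 11.5 CPM. *CDH2* was also called lower in DCIS.COM, with 8.83 and 9.16 CPM in pLOC-*MALINC1* (log2 fold change of -0.47 to -0.35 over the alternatives).

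Among 15 measured transcription factors known to act on junction genes, 2 rose and 4 fell in MCF10A and 7 rose and 2 fell in DCIS.COM, with median log2 fold changes of -0.041 and 0.46. The shares called were 40.0% and 60.0%, against 39.6% and 33.2% of all genes. *TP63*, the p63 factor of basal epithelium, had 5.24 and 4.60 CPM in MCF10A pLOC-empty and 41.7 and 40.1 CPM in pLOC-*MALINC1* (log2 fold change 3.04, SE 0.065, limma adjusted p = 1.08e-11), and in DCIS.COM it had 55.8 and 57.4 CPM and 49.1 and 50.0 CPM. Its difference in response, -3.23, passed the test (limma adjusted p = 1.07e-10). *GRHL3*, a grainyhead factor of epithelial barriers, was a DEG in both lines, with 4.31 and 4.69 against 13.7 and 10.95 CPM in MCF10A (log2 fold change 1.43, limma adjusted p = 5.83e-06) and 2.71 and 2.29 against 7.95 and 6.68 CPM in DCIS.COM (1.52, limma adjusted p = 4.35e-06).

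*ZEB2*, a repressor of epithelial genes, had 5.69 and 5.27 CPM in MCF10A pLOC-empty and 1.73 and 2.08 CPM in pLOC-*MALINC1* (log2 fold change -1.5, SE 0.316, limma adjusted p = 0.00172), and at most 3 reads in any DCIS.COM library. The *ZEB2* call was lost without replicate 1 or 2 of MCF10A pLOC-empty (-1.44 and -1.55, limma adjusted p = 0.0168 and 0.0120) or without replicate 1 of pLOC-*MALINC1* (-1.37, limma adjusted p = 0.0202, the highest over the alternatives). *SNAI2*, another such repressor, had 16.1 and 16.2 CPM in DCIS.COM pLOC-empty and 7.72 and 8.37 CPM in pLOC-*MALINC1* (log2 fold change -1.0, SE 0.069, limma adjusted p = 2.20e-07). In MCF10A *SNAI2* had 89.1 and 84.7 CPM and 64.5 and 73.9 CPM, and was also called lower (log2 fold change of -0.43 to -0.23 over the alternatives). *OVOL1*, a zinc finger factor that favours the epithelial state, had 2.75 and 2.48 CPM in DCIS.COM pLOC-empty and 5.24 and 5.41 CPM in pLOC-*MALINC1* (log2 fold change 1.01, SE 0.105, limma adjusted p = 7.99e-06). *OVOL1* and *SNAI2* stood close to the 2-fold line in DCIS.COM, and leaving out each library in turn gave log2 fold changes of 0.93 to 1.08 for *OVOL1* and of -1.06 to -0.95 for *SNAI2*, so that neither was a DEG in every case.

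**Figure D4:**
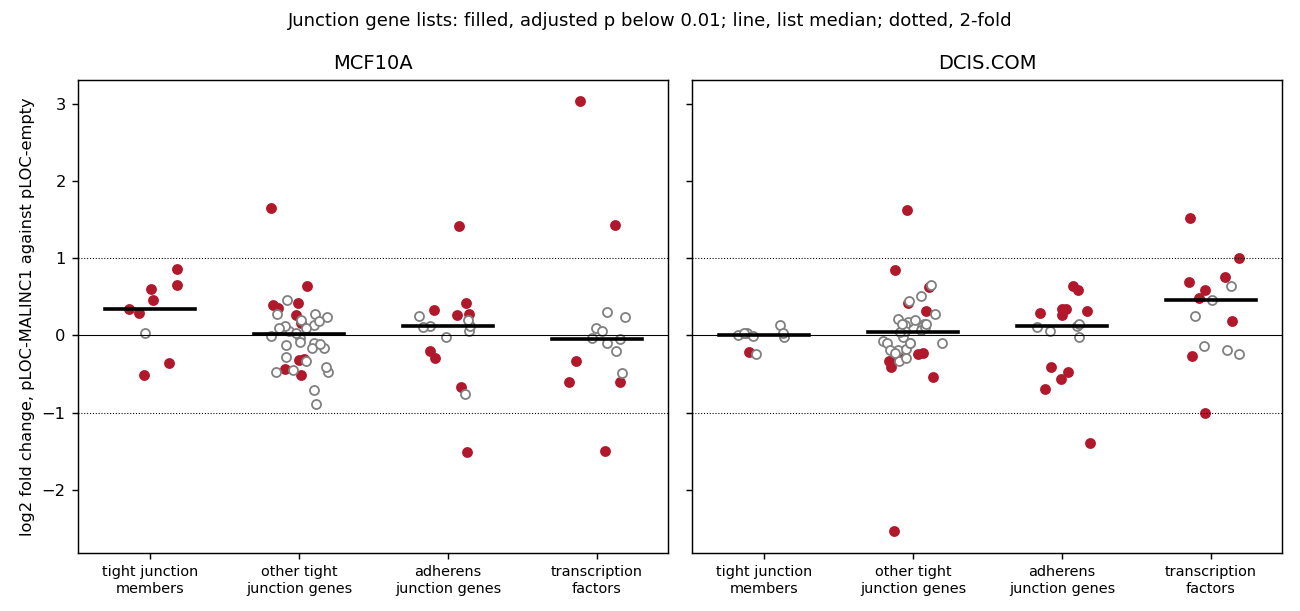
Log2 fold change of pLOC-MALINC1 over pLOC-empty libraries for the 9 members, 40 other tight junction genes, 17 adherens junction genes and 15 transcription factors in MCF10A (left) and DCIS.COM (right), with filled points for an adjusted p below 0.01, lines for list medians and dotted lines at 2-fold. The member medians are 0.34 and 0.0040.

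The genes with the profile most like that of a member over the 8 libraries were found among 10742 genes with a mean of 5 CPM or more, by the root mean squared difference (RMSD) between the 2 centred log2 profiles. The nearest was *NPAS2* for *CLDN1* (RMSD 0.0558), before *CTNNBIP1* and *KRT18*, *RIOK1* for *CLDN4* (0.0730), before *NOLC1* and *TAF4B*, and *AMMECR1L* for *CLDN7* (0.0250), before *ZMPSTE24* and *MIS12*. It was *EFNB2* for *OCLN* (0.105), before *LIPH* and *TAF13*, *ANKS3* for *MARVELD2* (0.0338), before *IFIT5* and *RPAP2*, and *LRPAP1* for *F11R* (0.0163), before *PIK3C2A* and *RPS26*. For the scaffolds it was *CEP128* for *TJP1* (0.0426), before *CTSB* and *TAX1BP3*, *POLR3GL* for *TJP3* (0.0735), before *PHC1* and *METRN*, and *SH3BGRL2* for *CGN* (0.0601), before *SMURF1* and *EBAG9*. No member was among the 3 genes nearest to another member. Genes that vary little, as *F11R* does, have small distances to many genes, so that these values do not rank the members.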

How the data were processed

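RNA was measured in 8 libraries of 2 cell lines, in 4 groups. The authors prepared ScriptSeq v2 libraries, sequenced 76 nt paired-end reads, aligned them to hg19 with Rsubread, counted UCSC knownGene genes (featureCounts) and deposited log2 CPM normalized in edgeR. Tool versions, strand setting and low-expression filter are not given in the sources used here. Whole reads were recovered from the deposited log2 CPM with the prior count of 2 (100% of values within 0.05 of a whole read), and CPM without the prior was taken from them. There were 0 unused sample columns and no columns of the authors' own comparisons. Rows without a symbol numbered 346 and stayed in the fit.

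The deposited log2 CPM of all genes with 0.5 CPM in at least 2 libraries, which kept all 13842, entered a limma 3.58.1 fit (R 4.3.3; 4 group means, eBayes with a trend, 7.98 prior and 4 residual degrees of freedom), over 5 contrasts. The steps were tested on simulated data. Replicates correlated at 0.996 to 0.997 across genes and differed by more than counting error (chi-square per degree of freedom 3.27 to 20.4), so they were kept as separate samples. Members and gene lists were chosen with earlier results of these data known. The text names all members, *MALINC1*, DEGs of the lists in a vector contrast, the 3 largest line differences with the empty vector in the tight junction list among genes with 5 CPM or more in the higher line, and the 3 genes most like each member; *OCLNP1*, *RN7SL1* and *RN7SL2* were added after their values were seen. A gene that the naming rule covers is not reported here. Coordinates are GRCh37 with GENCODE v44lift37. Python 3.11.15, pandas 2.3.3 and matplotlib 3.10.9 were used. Alternatives changed the pseudocount, filter, scaling, model and thresholds and left out each library in turn. Overlapping genes and pseudogene reads could be misassigned by the counting.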

Additional observations from a re-analysis of the deposited data

Results flagged for a closer look

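The response to *MALINC1* differed between the lines, by limma's test of the difference in log2 fold change (DCIS.COM minus MCF10A), for 6 members. The difference was -0.82 for *CLDN1*, -0.72 for *CLDN4*, -0.31 for *CLDN7*, -0.68 for *OCLN* and -0.46 for *CGN*. All 5 rose in MCF10A, and in DCIS.COM *CLDN1* fell and the other 4 were not called. For *TJP1* it was 0.39, from a fall in MCF10A and no call in DCIS.COM. The lines also differed in medium, which cannot be told apart from the line. Effects of *MALINC1* cannot be told apart from differences between the transduced populations. *MALINC1* itself had a mean of 12.5 CPM in MCF10A pLOC-*MALINC1* and 21.8 CPM in DCIS.COM pLOC-*MALINC1*. The part of its level in the differing responses was not tested.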

How the results depend on the processing

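Of the member values under the alternatives, 167 in MCF10A kept direction and call, 13 lost the call and 1 changed sign; in DCIS.COM 161 kept both, 2 lost the call and 9 changed sign. Fitting each line alone left 5 of 8 called members, without *MARVELD2*, *TJP3* and *CGN*, and 7 of 11 other tight junction genes in MCF10A. Without a trend 0 members were called in DCIS.COM, 3 members in the difference between the lines and 10 of 16 other tight junction genes in that difference. Asking for over 2-fold as well left 0, 0, 0, 2 and 4 members in MCF10A, DCIS.COM, the difference, the lines with the empty vector and the lines with *MALINC1*. In the same order it left 1, 2, 5, 11 and 11 other tight junction genes, 2, 1, 3, 8 and 6 adherens junction genes and 3, 3, 2, 9 and 7 transcription factors. At an adjusted p below 0.05, 15 in place of 9 adherens junction genes were called in MCF10A. Leaving out a library gave 6 to 8 called members in MCF10A and 0 to 1 in DCIS.COM. The cause of these changes was not tested, except that the stricter threshold removes genes by construction.

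Values near 0 that changed sign were never called. Without *RN7SL1* and *RN7SL2* in the library totals these were 0.012 for *OCLN* and 0.026 for *CGN* in DCIS.COM and -0.0045 for *F11R* in MCF10A. With median ratio size factors it was -0.0025 for *MARVELD2* in DCIS.COM. Over the libraries left out in turn, the DCIS.COM values ran from -0.063 to 0.017 for *OCLN*, from -0.017 to 0.025 for *MARVELD2*, from -0.0082 to 0.078 for *TJP1* and from -0.036 to 0.019 for *CGN*, and the *F11R* difference from -0.018 to 0.024.

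The labels give replicate numbers but no batch. Over 10742 genes, the difference between the replicates of a group correlated between the vectors at -0.156 in MCF10A and 0.111 in DCIS.COM. With 2 libraries a group this cannot show whether same-numbered libraries were prepared together. With the replicate block the called members stayed at 8, 1, 6, 8 and 9 in the 5 comparisons, and with numbers crossed in MCF10A, an alternative added after seeing the data, at 8. Summing *OCLN* and *OCLNP1* reads was also added after seeing the data. With 2 libraries a group, standard errors of the members were 0.0316 to 0.117 on the log2 scale within and between the lines. For the difference in response they were 0.0447 to 0.166. Changes of that size were not detectable.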
